A study of Mus musculus with 17 samples.

Results

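Expression of 10 genes of gut peptide signalling was followed in the forestomach: Grp, Cartpt, Tac1, Vip, Npy, Gal, Nmu, Calcb and Sst, which encode peptide transmitters and hormones, and Scg2, which encodes a secretogranin. They were chosen by name, with the differences between the 75 mg/kg and control groups already known, and every probe whose RefSeq transcript belongs to one of them was taken. Each of the 10 genes had 1 probe on the array, and 8 of the 10 passed the filter on dim probes and stood among the 21380 genes tested. The filter asked for a signal well above background in the forestomach channel on at least 4 arrays. Calcb and Sst did not pass it.

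The study gave male MutaTMMouse animals, a transgenic strain used for mutation assays, benzo(a)pyrene (BaP) in olive oil by gavage every day for 28 days. BaP is a polycyclic aromatic hydrocarbon that activates the aryl hydrocarbon receptor and forms DNA adducts. Controls received olive oil alone (replicates 1 to 5), and BaP was given daily at 25 mg/kg (replicates 6 to 9), at 50 mg/kg (replicates 12 to 15) or at 75 mg/kg (replicates 17 to 20). All animals were 24 to 26 weeks old and carried the same transgenic background, and forestomachs were taken 72 hours after the last dose, so that the arrays read a state after dosing had ended. Each of the 17 arrays held the RNA of 1 forestomach in the Cy5 channel and a common reference RNA from mouse cell lines in the Cy3 channel. The samples of a dose group are called biological replicates in the design text. Values are log2 of Cy5 over Cy3, and the dyes were not swapped.

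The peptides studied here are made as longer precursors, cut by prohormone convertases, stored with granins in dense-core vesicles and released from nerve endings or endocrine cells. In the stomach wall most of them belong to enteric neurons and to the sensory and sympathetic fibres that reach the wall from outside. There they set muscle tone, blood flow and the secretion of other hormones, while somatostatin comes mainly from endocrine D cells of the glandular stomach. The forestomach of rodents has a stratified squamous lining and no gastric glands of its own. Cyclic AMP raises transcription of several neuropeptide genes through the cyclic AMP response element, TGACGTCA.

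Promoters were searched for that element. The search covered 8 of the 10 genes in the RefSeq promoter table of build GRCm38.p6. Each promoter ran from 250 bases before to 50 bases after the start. Grp and Calcb were not searched, so the counts below say nothing about them. TGACGTCA stood in 3 of the 8, against 1.79% of all 32851 promoters of that length. It lay 112 bases before the start of Cartpt, 68 before that of Scg2 and 48 before that of Sst. The 5-base part TGACG, searched on both strands and contained in the full element, stood in 7 of the 8 (all but Npy), against 20.8% of all promoters. GCGTG, the core of the site bound by the aryl hydrocarbon receptor, stood in 5 of the 8 on either strand (Tac1, Scg2, Npy, Nmu and Sst), against 32.4%. TATAAA was found only in Vip, against 13.6% of all promoters, and CACGTG in Tac1 and Nmu, against 7.15%. A match of letters is no evidence of binding, and any part of these elements in the differences between dose groups was not tested. The promoters of Cartpt, Scg2 and Sst are shown for the full element, those of Tac1 and Vip for the part of it that they hold, with TGACG and its reverse complement in capitals.
Cartpt, chr13:99900634-99900933, minus strand: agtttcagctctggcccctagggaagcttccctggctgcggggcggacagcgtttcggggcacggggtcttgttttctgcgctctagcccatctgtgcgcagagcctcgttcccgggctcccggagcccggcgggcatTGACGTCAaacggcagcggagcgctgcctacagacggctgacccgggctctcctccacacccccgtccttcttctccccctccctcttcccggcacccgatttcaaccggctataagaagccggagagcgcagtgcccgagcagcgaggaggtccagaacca
Scg2, chr1:79439977-79440276, minus strand: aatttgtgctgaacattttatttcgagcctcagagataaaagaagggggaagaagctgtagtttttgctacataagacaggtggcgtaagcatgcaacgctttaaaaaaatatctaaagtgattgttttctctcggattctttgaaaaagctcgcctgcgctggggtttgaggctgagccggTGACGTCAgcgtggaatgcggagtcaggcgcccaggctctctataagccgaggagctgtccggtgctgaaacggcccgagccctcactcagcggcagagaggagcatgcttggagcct
Tac1, chr6:7554811-7555110, plus strand: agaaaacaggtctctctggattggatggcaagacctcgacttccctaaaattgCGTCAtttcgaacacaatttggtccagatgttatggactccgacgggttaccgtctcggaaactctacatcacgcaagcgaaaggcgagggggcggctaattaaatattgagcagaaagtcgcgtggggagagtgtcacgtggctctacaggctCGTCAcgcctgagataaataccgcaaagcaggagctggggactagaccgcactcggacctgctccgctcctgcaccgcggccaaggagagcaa
Vip, chr10:5638968-5639267, plus strand: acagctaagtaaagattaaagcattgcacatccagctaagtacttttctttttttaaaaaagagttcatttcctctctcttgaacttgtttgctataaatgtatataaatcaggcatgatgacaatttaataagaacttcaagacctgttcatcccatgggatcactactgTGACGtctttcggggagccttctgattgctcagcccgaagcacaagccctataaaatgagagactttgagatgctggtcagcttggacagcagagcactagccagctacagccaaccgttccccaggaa
Sst, chr16:23890795-23891094, minus strand: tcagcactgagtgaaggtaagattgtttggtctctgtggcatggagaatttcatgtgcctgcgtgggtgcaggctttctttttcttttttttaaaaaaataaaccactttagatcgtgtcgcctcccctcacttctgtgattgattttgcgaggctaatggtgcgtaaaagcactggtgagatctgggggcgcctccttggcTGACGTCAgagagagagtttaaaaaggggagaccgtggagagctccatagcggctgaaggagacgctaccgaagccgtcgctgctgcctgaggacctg

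The share of probes well above background in Cy5 ran from 41.2% to 52.0%, and arrays correlated at 0.859 to 0.977. The 17 arrays lay on 3 slides of 6, 7 and 4 arrays, each with all 4 groups. Glandular stomach markers differed widely between arrays. All 10 measured markers were well above background on 25 mg/kg replicates 7 and 9 and on 75 mg/kg replicate 20, where their mean log2 ratio was 5.60, 2.39 and 2.62, and 75 mg/kg replicate 17 had 9 of 10 and a mean of 2.40. On the other 13 arrays the mean lay between 0.15 and 1.67. Results that rest on replicates 7, 9 and 20 are given with and without them. In whole tissue, fewer cells of a type and less RNA per cell cannot be told apart.

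The 75 mg/kg forestomachs had lower Grp, Cartpt, Tac1 and Scg2 than control forestomachs, by 1.05 to 2.14 on the log2 scale, and these 4 of the 8 measured genes passed the threshold of an adjusted p of 0.05 in limma. In the same comparison 1.10% of all 21380 genes passed it, 0.210% in the lower direction. With arrays centred on their medians in place of loess, Grp alone passed, and Cartpt, Tac1 and Scg2 had limma adjusted p of 0.121, 0.0773 and 0.197. From Agilent's processed signals Cartpt and Tac1 missed the threshold, at limma adjusted p of 0.0908 and 0.0513, and without the filter on dim probes Scg2 did, at 0.0564. Because this contrast was known when the genes were chosen, the count and the values below are a description and nothing is read from that comparison of shares. All 8 measured genes had a difference below 0 (7 of 8, all but Nmu, with arrays centred on their medians), as had 52.0% of all genes. The median difference of the 8 was -0.88, against -0.01 over all genes. The dose groups share the control arrays, so their differences from control are not independent.

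**Figure D1:**
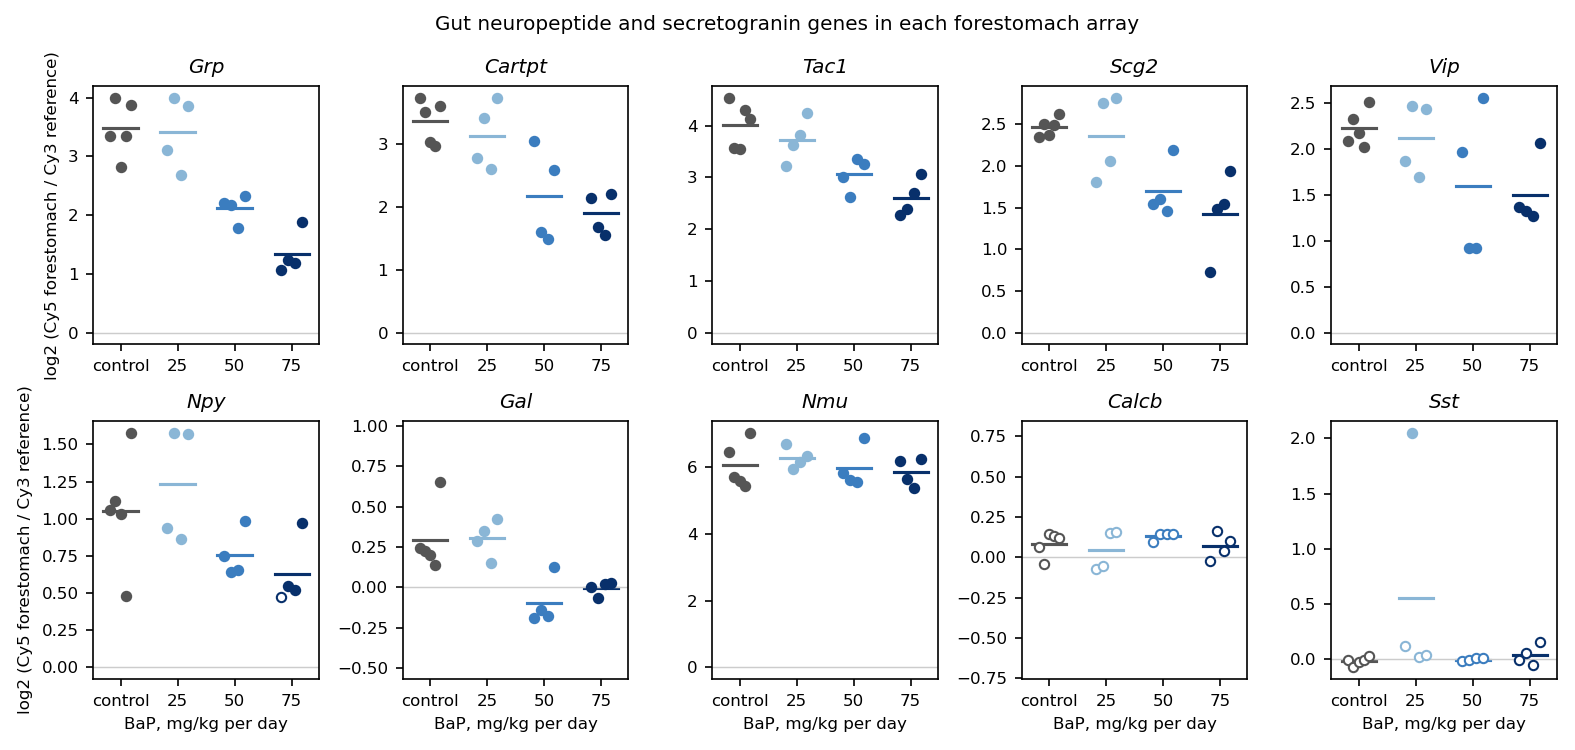
Log2 of Cy5 over Cy3 for each of the 10 genes, with 1 point per array, control and the 3 doses of BaP from left to right, a bar for the group mean, and open points for arrays on which the probe was not well above background in Cy5. Grp, Cartpt, Tac1 and Scg2 are lower at 50 and 75 mg/kg, Nmu overlaps in all groups, Calcb is open on all arrays and Sst is filled on 1 array.

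Grp, Tac1 and Nmu encode peptides that stimulate muscle or secretion. Grp encodes gastrin-releasing peptide, a transmitter of gastric nerve fibres that releases gastrin from G cells. Its log2 ratio was 3.35, 3.99, 2.81, 3.35 and 3.88 in control forestomachs, 3.11, 4.00, 2.69 and 3.85 at 25 mg/kg, 2.20, 2.18, 1.78 and 2.33 at 50 mg/kg, and 1.06, 1.23, 1.19 and 1.88 at 75 mg/kg. No array at 50 or 75 mg/kg reached the lowest control array, whereas the 25 mg/kg arrays spanned the control range. The difference from control was -0.07 ± 0.27 at 25 mg/kg, -1.36 ± 0.27 at 50 mg/kg and -2.14 ± 0.27 at 75 mg/kg (± SE of the fit, n = 4 per dose and 5 controls), so that Grp at 75 mg/kg stood at 22.8% of control, 4.39-fold lower. Within each of the 3 slides the difference at 75 mg/kg lay between -2.61 and -1.87. In the reference channel Grp was well above background on 0 of 17 arrays, so part of each ratio is set by background there. From the Cy5 channel alone the difference at 75 mg/kg was -1.98.

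Tac1 encodes the precursor of substance P and neurokinin A, transmitters of excitatory motor neurons and of sensory fibres. Its log2 ratio was 4.54, 3.57, 3.55, 4.30 and 4.13 in control forestomachs, 3.22, 3.63, 3.82 and 4.24 at 25 mg/kg, 3.01, 2.62, 3.35 and 3.26 at 50 mg/kg, and 2.26, 2.38, 2.70 and 3.07 at 75 mg/kg. The 50 and 75 mg/kg arrays all lay below the lowest control array, and they overlapped each other. The difference from control was -0.29 ± 0.24 at 25 mg/kg, -0.96 ± 0.24 at 50 mg/kg and -1.42 ± 0.24 at 75 mg/kg, where Tac1 stood at 37.5% of control. Within slides 1, 2 and 3 it was -1.79, -1.38 and -1.06 at 75 mg/kg. In the reference channel Tac1 was well above background on 4 of 17 arrays, so part of most of its ratios is set by background there. From Agilent's processed signals the difference at 75 mg/kg was -2.40.

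Nmu encodes neuromedin U, a peptide that contracts smooth muscle. Its log2 ratio ran from 5.45 to 7.04 (median 5.71) in control forestomachs, from 5.95 to 6.69 (median 6.25) at 25 mg/kg, from 5.54 to 6.88 (median 5.71) at 50 mg/kg and from 5.39 to 6.25 (median 5.91) at 75 mg/kg. All groups overlapped. The difference from control was 0.23 ± 0.33, -0.09 ± 0.33 and -0.19 ± 0.33 at 25, 50 and 75 mg/kg. It differed in sign between slides at 75 mg/kg, at 0.08, -0.01 and -0.79 on slides 1, 2 and 3, and it was 0.07 when arrays were centred on their medians in place of loess, where the median over all genes was 0.19.

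Vip, Npy and Gal encode peptides that mostly inhibit muscle, secretion or transmitter release. Vip encodes vasoactive intestinal peptide, a transmitter of inhibitory motor neurons that relaxes smooth muscle. Its log2 ratio was 2.08, 2.33, 2.17, 2.02 and 2.51 in control forestomachs, 1.86, 2.46, 1.69 and 2.43 at 25 mg/kg, 1.97, 0.92, 0.92 and 2.55 at 50 mg/kg, and 1.36, 1.32, 1.26 and 2.06 at 75 mg/kg. At 75 mg/kg 3 of 4 arrays lay below every control array and replicate 20 lay within the control range, while the 50 mg/kg arrays split, with replicates 13 and 14 lowest and replicate 15 above every control. The difference from control was -0.11 ± 0.29, -0.63 ± 0.29 and -0.72 ± 0.29 at 25, 50 and 75 mg/kg. Without replicates 7, 9 and 20 it was -0.91 at 75 mg/kg.

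Npy encodes neuropeptide Y, which is made by sympathetic and some enteric neurons. Its log2 ratio ran from 0.48 to 1.58 (median 1.06) in control forestomachs, from 0.86 to 1.57 (median 1.25) at 25 mg/kg, from 0.64 to 0.99 (median 0.70) at 50 mg/kg and from 0.48 to 0.97 (median 0.53) at 75 mg/kg. The groups overlapped throughout, and the differences from control were 0.18 ± 0.20, -0.29 ± 0.20 and -0.43 ± 0.20 at the 3 doses. Gal encodes galanin, a transmitter that mostly lowers the release of others. Its log2 ratio was 0.24, 0.23, 0.20, 0.14 and 0.65 in control forestomachs, 0.29, 0.35, 0.15 and 0.42 at 25 mg/kg, -0.19, -0.14, -0.18 and 0.13 at 50 mg/kg, and 0.00, -0.06, 0.02 and 0.02 at 75 mg/kg. All arrays at 50 and 75 mg/kg lay below all control arrays, with small differences of -0.39 ± 0.11 and -0.30 ± 0.11, against 0.01 ± 0.11 at 25 mg/kg. Gal was well above background in both channels on all 17 arrays, so a ratio near 0 here is a like signal in forestomach and reference, not a missing one.

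Cartpt encodes the precursor of cocaine- and amphetamine-regulated transcript peptide, which is found in myenteric neurons. Its log2 ratio was 3.73, 3.51, 3.02, 2.96 and 3.61 in control forestomachs, 2.77, 3.41, 2.59 and 3.73 at 25 mg/kg, 3.04, 1.59, 1.48 and 2.59 at 50 mg/kg, and 2.14, 1.67, 1.55 and 2.21 at 75 mg/kg. The 75 mg/kg arrays all lay below the controls, while 50 mg/kg replicate 12 lay within the control range. The difference from control was -0.24 ± 0.31, -1.19 ± 0.31 and -1.47 ± 0.31 at the 3 doses, and at 75 mg/kg Cartpt stood at 36.1% of control.

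Scg2 encodes secretogranin II, a granin that helps to form dense-core vesicles and is the source of the peptide secretoneurin. Its log2 ratio was 2.35, 2.50, 2.38, 2.50 and 2.63 in control forestomachs, 1.81, 2.76, 2.06 and 2.82 at 25 mg/kg, 1.54, 1.60, 1.46 and 2.19 at 50 mg/kg, and 0.73, 1.48, 1.54 and 1.94 at 75 mg/kg. The controls were close together, with an SD of 0.11, and all 50 and 75 mg/kg arrays lay below them, whereas the 25 mg/kg arrays lay on both sides. The difference from control was -0.11 ± 0.23, -0.77 ± 0.23 and -1.05 ± 0.23, and at 75 mg/kg Scg2 stood at 48.4% of control. Without 75 mg/kg replicate 17, the lowest array, it was -0.82 at 75 mg/kg and Scg2 no longer passed the threshold. The call held in 7 of the 17 fits that left out 1 array.

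Calcb, which encodes the beta form of calcitonin gene-related peptide, a vasodilator, was not well above background on any of the 17 arrays in either channel, so its log2 ratios of -0.07 to 0.16 are no measure of its level. Sst encodes somatostatin, which inhibits gastrin and acid secretion. It was well above background on 1 of 17 arrays, 25 mg/kg replicate 7, at a log2 ratio of 2.05, and lay between -0.08 and 0.15 on the rest. Replicate 7 was also the array with the highest glandular marker mean, 5.60, with all 10 markers well above background. Without it no array had Sst well above background. The part of gland tissue in the Sst signal was not tested.

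**Figure D2:**
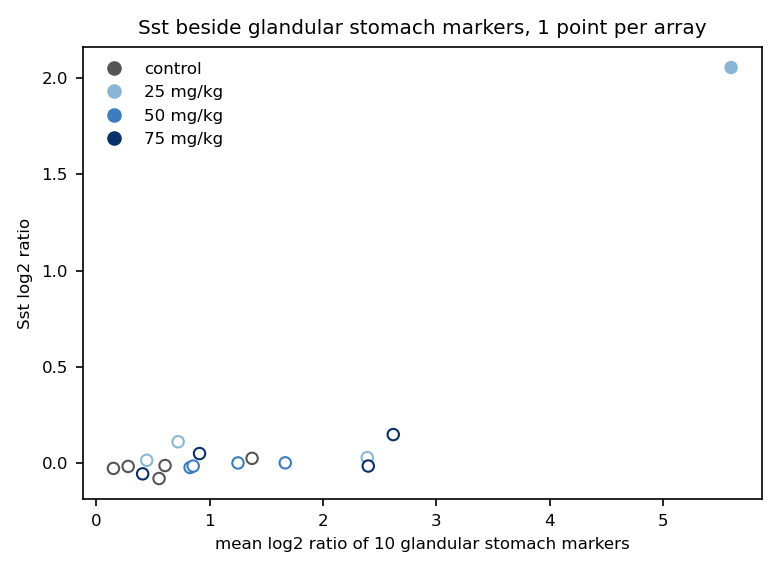
Log2 ratio of Sst on the vertical axis against the mean log2 ratio of 10 glandular stomach markers on the horizontal axis, with 1 point per array coloured by dose group and filled where Sst was well above background. The single filled point is 25 mg/kg replicate 7, at 5.60 and 2.05.

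Set side by side, the differences from control were small at 25 mg/kg and lay between -1.36 and -0.09 at 50 mg/kg and between -2.14 and -0.19 at 75 mg/kg. None of the 8 genes passed the adjusted threshold at 25 or 50 mg/kg, where 0.0140% and 0.0468% of all genes did. At an unadjusted p under 0.05, 0 of the 8 were lower at 25 mg/kg, against 1.16% of all genes, and 6 of the 8 were lower at 50 mg/kg, against 2.95%. With slide as a fixed block, Grp and Cartpt passed the adjusted threshold at 50 mg/kg, and with slide as a random block Grp did. The groups did not overlap, with the dosed group lower, for 4 of the 8 genes at 50 mg/kg (Grp, Tac1, Scg2 and Gal), against 0.987% of all genes, and for 5 of the 8 at 75 mg/kg, the same 4 and Cartpt, against 1.31%. At 25 mg/kg no measured gene was separated in that direction, against 0.430% of all genes. The median difference of the 8 was -0.09, -0.70 and -0.88 at 25, 50 and 75 mg/kg. From 50 to 75 mg/kg the further difference was -0.78 ± 0.29 for Grp and lay between -0.46 and 0.09 for the other 7, with overlapping groups for all 8.

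**Figure D3:**
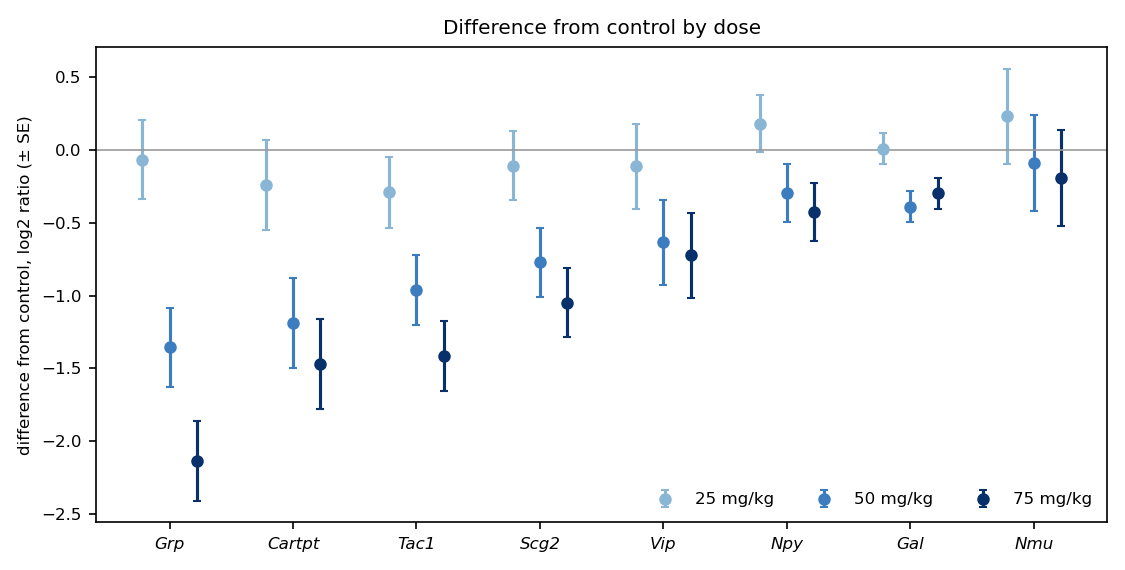
Difference from control in log2 ratio, with the standard error of the fit as bars, for the 8 measured genes at 25, 50 and 75 mg/kg (n = 4 per dose, 5 controls). The points at 25 mg/kg lie near 0, and those at 50 and 75 mg/kg lie furthest below 0 for Grp, at -1.36 and -2.14.

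The difference between 50 and 25 mg/kg uses neither the control nor the 75 mg/kg arrays, although limma's standard errors and p-values pool the spread of all 4 groups. No gene of the 8 passed limma's adjusted threshold, and neither did any of the 21380 genes (0%). With only the 2 groups compared in the fit, 0 of the 8 passed as well. Each of the 8 had an adjusted p of 1. At an unadjusted p under 0.05, 6 of the 8 were lower at 50 mg/kg (Grp, Tac1, Npy, Gal, Cartpt and Scg2), against 1.26% of all genes, and all 8 differences were below 0, as were 54.6% over all genes. Grp averaged 2.12 at 50 mg/kg and 3.41 at 25 mg/kg, a difference of -1.29 ± 0.29 with a 95% interval of -1.90 to -0.68, and every 50 mg/kg array lay below every 25 mg/kg array. Gal averaged -0.10 at 50 mg/kg and 0.30 at 25 mg/kg, a difference of -0.40 ± 0.11, again with no overlap, and Cartpt and Tac1 differed by -0.95 ± 0.33 and -0.67 ± 0.26 with overlap. These 2 of 8 separated genes stand against 1.06% of all genes.

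That comparison rests in part on 25 mg/kg replicates 7 and 9, the arrays with the most gland signal at that dose. They held the highest Grp, Cartpt, Scg2, Vip, Npy and Gal values of the group. Without replicates 7, 9 and 20 only replicates 6 and 8 were left at 25 mg/kg, on slides 1 and 2. The difference at 50 against 25 mg/kg was then -0.78 for Grp, -0.51 for Cartpt, -0.46 for Tac1, -0.24 for Scg2 and -0.32 for Gal. An unadjusted p under 0.05 was reached by 2 of the 8 genes, against 443 of all 21380 genes. The differences of 25 mg/kg from control then became -0.58 for Grp, -0.68 for Cartpt, -0.50 for Tac1 and -0.53 for Scg2, against -0.07, -0.24, -0.29 and -0.11 with all arrays. At 75 mg/kg the 4 calls stayed at 4 without those arrays, with differences of -2.32 for Grp, -1.58 for Cartpt, -1.57 for Tac1 and -1.22 for Scg2.

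Related genes were taken from lists of the pathway and of cell types. Of 27 other gut and neural peptide precursors, 13 were measured, and 0 passed in either direction at 75 mg/kg, with a median difference of 0.19 and 2 of 13 below 0. The brightest were Penk, the enkephalin precursor, at -0.41 ± 0.20, Npff at 0.01 ± 0.09 and Nmb, the neuromedin B precursor, at 0.19 ± 0.18. Of 23 receptors of the peptides, 10 were measured and 0 passed, with a median of -0.06 (0.08 with arrays centred on their medians, where the median over all genes was 0.19 and 6 of 10 lay below it). The brightest receptors were Tacr2, the neurokinin A receptor of smooth muscle, at -0.09 ± 0.18, Sstr5 at 0.02 ± 0.11 and Vipr1 at 0.17 ± 0.32. Genes of both lists with an unadjusted p under 0.05 were also named, after their values were seen. In limma 2153 of all 21380 genes reached that p at 75 mg/kg, in either direction. The lists below have the same background. Among the precursors they were Cck, which encodes cholecystokinin, at 0.79 ± 0.21, Pthlh at 0.62 ± 0.26 and Nts, the neurotensin precursor, at 0.46 ± 0.16. Among the receptors they were Grpr, the receptor of gastrin-releasing peptide, at -0.68 ± 0.25 and Npy1r, a receptor of neuropeptide Y, at 0.40 ± 0.15.

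Of 18 granins and dense-core vesicle proteins, 13 were measured and 0 passed, with a median of -0.20 and 11 of 13 below 0 (8 of 13 with arrays centred on their medians, 11 of 13 below the median over all genes there). The brightest were Rab27b, a GTPase of secretory vesicles, at 0.12 ± 0.27, the protease Bace1 at -0.20 ± 0.17 and the vesicle GTPase Rab3a at -0.22 ± 0.14. Those with an unadjusted p under 0.05, named after their values were seen, were the granin Chgb at -0.68 ± 0.24, Vgf, the source of several secreted peptides, at -0.33 ± 0.14 and Slc18a2, the vesicular monoamine transporter, at -0.27 ± 0.11. Of 14 peptide processing enzymes, 12 were measured and 0 passed, with a median of 0.07. Among these, Cpe, the carboxypeptidase that trims peptide precursors, was at -0.37 ± 0.19, the protease Ctsl at -0.46 ± 0.16 and the convertase Pcsk6 at 0.02 ± 0.18. Of the 12, Ctsl was lower and Cpz, at 0.42 ± 0.14, was higher at an unadjusted p under 0.05. Cpz was named after its values were seen.

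Of 30 enteric neuron markers, 25 were measured, and 1 fell and 0 rose at 75 mg/kg. It was Syt1, the calcium sensor of synaptic vesicle release, with a mean of 0.71 at 75 mg/kg and 1.66 in control, a difference of -0.95 ± 0.20 (limma adjusted p = 0.0245). That call was lost from the Cy5 channel alone (adjusted p = 0.123) and without any 1 of control replicates 1, 3 and 4 or 75 mg/kg replicates 17, 18 and 19. The other genes named by brightness were Snap25, a protein of vesicle fusion, at -0.11 ± 0.18 and the adhesion molecule Ncam1 at -0.14 ± 0.22. At an unadjusted p under 0.05, which 2153 of all 21380 genes reached in either direction, 5 markers were lower and 2 higher. They were named after their values were seen. Beside Syt1, the lower ones were Stmn2 at -0.52 ± 0.18, Slc5a7 at -0.48 ± 0.16, Slc18a3 at -0.42 ± 0.17 and Nefl at -0.34 ± 0.13. The higher ones were Tubb3 at 0.53 ± 0.15 and Celf4 at 0.21 ± 0.09. The median over the 25 was -0.18, and 21 of 25 were below 0. With arrays centred on their medians, where the median over all genes was 0.19, 14 of 25 were below 0 and 19 of 25 below that median. The mean log2 ratio over the 25 markers ran from 0.51 to 0.87 at 75 mg/kg and from 0.78 to 1.09 in control, with overlap. Chat and Nos1, which define the main classes of enteric motor neuron, were too dim to pass the filter, as were Elavl3, Nefm and Nefh. The part of nerve content in the peptide differences was not tested.

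**Figure D4:**
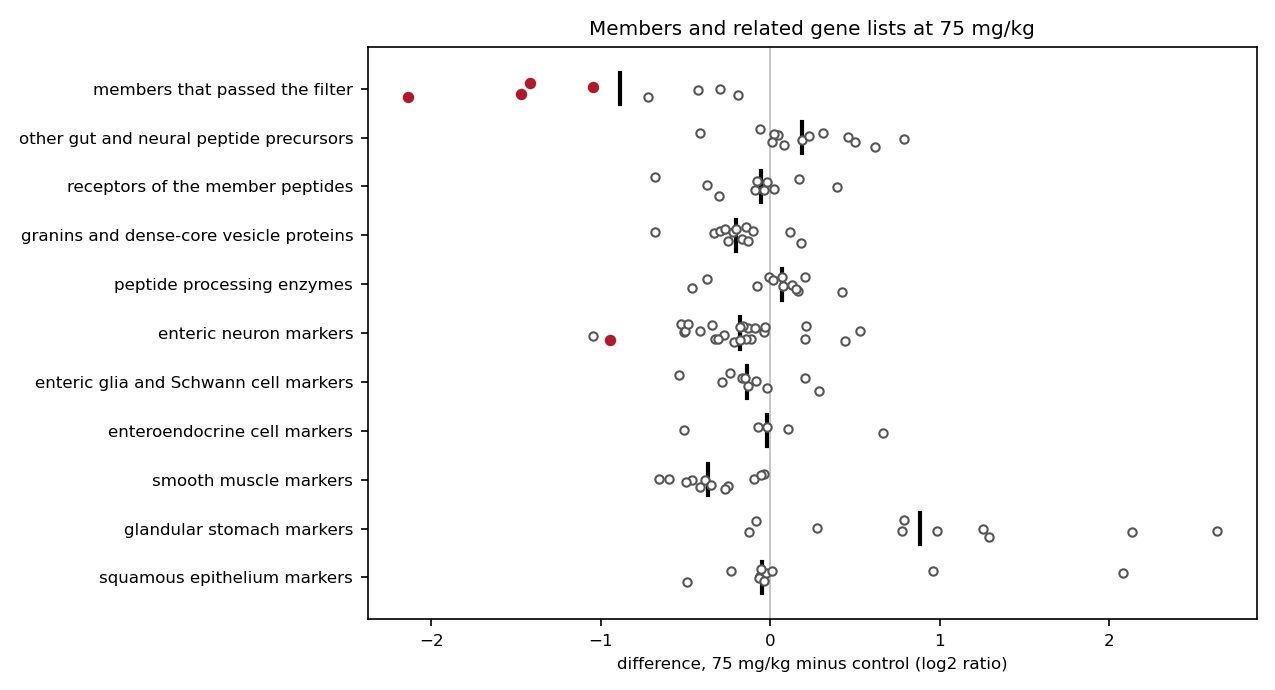
Difference in log2 ratio, 75 mg/kg minus control, for each measured gene of the peptide set and of 10 related lists, with a bar at each list's median and red points for an adjusted p under 0.05. The 4 red points of the peptide set and Syt1 are the only filled ones. The peptide set was chosen with this contrast known, so its median of -0.88 and its 4 red points are a description and are not ranked against the lists.

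Of 15 enteric glia and Schwann cell markers, 10 were measured and 0 passed, with a median of -0.14 (0.12 with arrays centred on their medians, where 7 of 10 lay below the median over all genes). The myelin genes Mbp and Pmp22 were at -0.09 ± 0.09 and -0.16 ± 0.12. The glial mean ran from 0.39 to 0.88 at 75 mg/kg and from 0.46 to 0.83 in control. Of 12 smooth muscle markers, all 12 were measured and 0 passed, with a median of -0.37 and all 12 below 0 (6 of 12 with arrays centred on their medians, 11 of 12 below the median over all genes), and their mean ran from 3.58 to 4.18 at 75 mg/kg and from 3.95 to 4.50 in control. Tagln, Acta2 and Cnn1, which encode actin-binding or contractile proteins of smooth muscle, were at -0.46 ± 0.22, -0.59 ± 0.23 and -0.41 ± 0.24. Acta2 and Smtn, at -0.66 ± 0.26, were lower at an unadjusted p under 0.05. Smtn was named after its values were seen.

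Of 12 enteroendocrine markers, 5 were measured and 0 passed, with a median of -0.02, and the defining factors Neurod1, Insm1 and Neurog3 did not pass the filter. Ddc, Nkx2-2 and Tph1 were at -0.51 ± 0.24, 0.10 ± 0.12 and 0.67 ± 0.21, of which Ddc was lower and Tph1 higher at an unadjusted p under 0.05. Of 10 squamous epithelium markers, all 10 were measured and 0 passed, with a median of -0.05 (0.31 with arrays centred on their medians, where 3 of 10 lay below the median over all genes). Lor, Krt5 and Krt13, which encode loricrin and keratins, were at -0.49 ± 0.22, -0.06 ± 0.14 and 0.01 ± 0.26. At an unadjusted p under 0.05, Lor was lower, and Krt6a at 2.08 ± 0.56 and Dsg3 at 0.96 ± 0.29 were higher. The last 2 were named after their values were seen. Of 12 glandular stomach markers, 10 were measured and 0 passed, with a median of 0.88, and their mean ran from 0.41 to 2.62 at 75 mg/kg and from 0.15 to 1.37 in control. Tff1, Gkn2 and Muc5ac, products of the gastric surface mucous cells, were at 2.13 ± 1.05, 2.63 ± 1.49 and 1.29 ± 0.68.

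The 8 genes also varied together between animals of the same dose, a measure that does not use the differences between groups. For each of the 28 pairs, deviations from the group means were correlated over the 17 arrays, with a permutation test that moved arrays within dose groups. All 28 correlations were positive, from 0.13 to 0.81, and 14 of 28 had a Pearson p under 0.05 after Benjamini-Hochberg adjustment, 9 of 28 also by Spearman. How often pairs of other genes pass was not computed, so the count is not shown to be particular to these genes. Cartpt and Vip had r = 0.805 (permutation p = 0.0101, adjusted 0.026) and rho = 0.88 (permutation p = 0.00281, adjusted 0.0227), and without the 2 arrays farthest from the Cartpt median r was 0.782. Grp and Scg2 had r = 0.711 (permutation p = 0.00631, adjusted 0.026) and rho = 0.755 (permutation p = 0.00555, adjusted 0.0227), with r = 0.613 without the 2 farthest arrays. Tac1 stood apart, with r of 0.22 to 0.50 with the other 7 and no pair past the threshold.

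Slide moved with these values. The slide 3 arrays, which are 1 array of each dose group, lay above their group mean for all 8 genes in all 4 groups, 32 of 32 cases. The share of such cases over all genes was not computed. These arrays also had the highest glandular marker mean in control, 50 and 75 mg/kg, at 1.37, 1.67 and 2.62. At 25 mg/kg replicate 9, at 2.39, came second to replicate 7. Slide 3 and gland content therefore went largely together, though not wholly. The gland-rich 25 mg/kg replicate 7, at 5.60, and 75 mg/kg replicate 17, at 2.40, lay on slide 1. The cause of the shift was not tested. With slide removed as well as dose group, 0 of 28 pairs passed the threshold. Grp with Scg2 was then at r = 0.764, Scg2 with Vip at 0.617 and Cartpt with Vip at 0.559, whereas Vip with Npy was at 0.139, against 0.682 before, and Grp with Nmu at -0.671, against 0.273. Slides hold 4 to 7 arrays in all 4 groups, too few for a correlation within each. Without replicates 7, 9 and 20, 5 of 28 pairs passed.

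**Figure D5:**
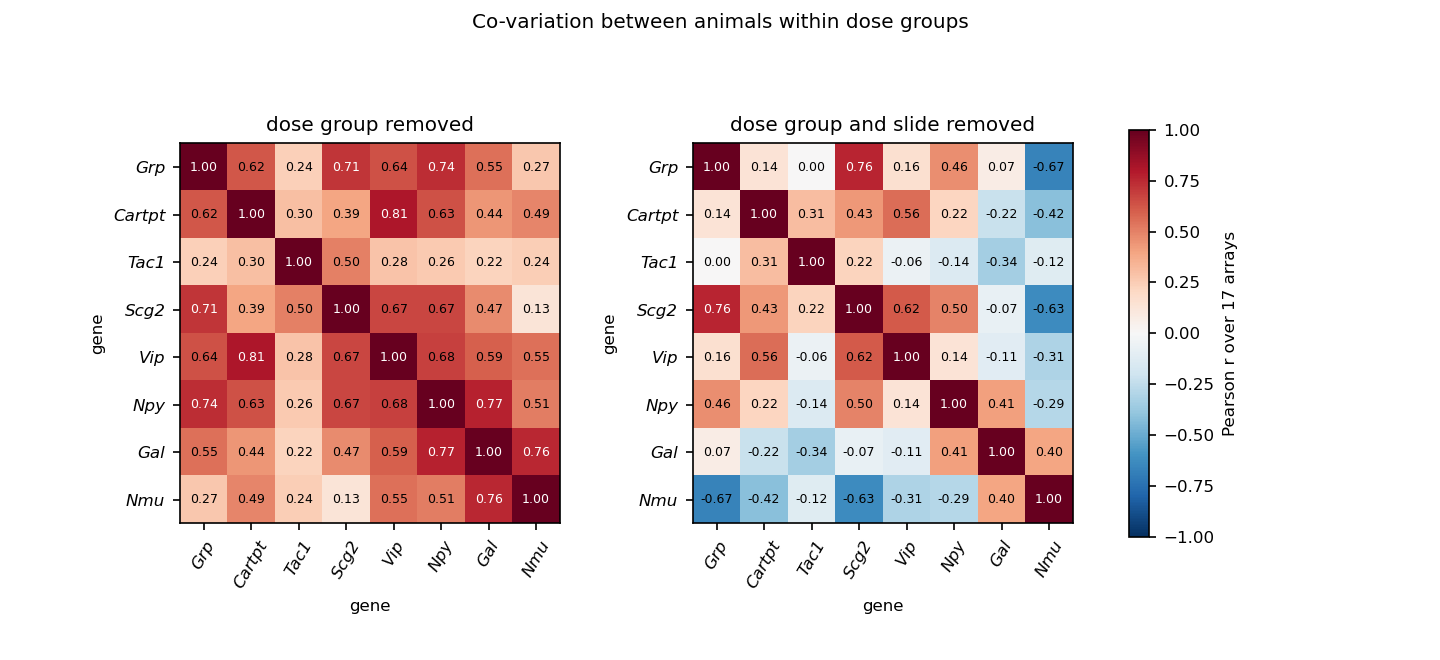
Pearson r over 17 arrays between the 8 measured genes after removal of the dose group means (left) and of dose group and slide means (right), with the value in each cell. All 28 pairs are positive on the left, and on the right Grp with Scg2 has the highest r, at 0.764.

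Deviations of the 8 genes were also set against the means of the neuron, glia, smooth muscle, gland and squamous markers, 40 relations that were added after the data were seen. Grp followed the neuron mean at r = 0.87 (permutation p = 0.00059, adjusted 0.0118) and rho = 0.877 (permutation p = 5e-04, adjusted 0.0126). That r was 0.819 without the 2 farthest arrays, 0.861 with slide removed and 0.726 without replicates 7, 9 and 20. Scg2 and Npy had r = 0.792 and 0.795 with the neuron mean (permutation, adjusted 0.0206 each), and with slide removed 0.723 and 0.683. Without replicates 7, 9 and 20 their r was 0.572 and 0.612. Vip and Gal passed by Pearson at r = 0.584 and 0.599 (permutation, adjusted 0.0469 and 0.034), but with slide removed they were at 0.279 and 0.266. Without replicates 7, 9 and 20 they were at 0.357 and 0.612. Tac1 had r = 0.0563 with the neuron mean (permutation p = 0.851), and Nmu 0.174 (permutation p = 0.504). Grp, Scg2, Vip and Npy passed with the glial mean, at r of 0.817, 0.783, 0.697 and 0.72. Without replicates 7, 9 and 20 these were 0.583, 0.495, 0.544 and 0.437. No gene passed with the smooth muscle mean by Pearson, and with the squamous mean Cartpt alone did, at r = 0.718 and, with slide removed, 0.235. That r was 0.796 without replicates 7, 9 and 20. All 8 correlations with the glandular mean were positive. Vip passed with it by Pearson alone (r = 0.496, permutation p = 0.00851, adjusted 0.034), at 0.259 with slide removed, and Gal by Spearman alone (rho = 0.566, permutation p = 0.00934, adjusted 0.0415). Grp had r = 0.666 with the glandular mean (permutation p = 0.0199, adjusted 0.0611), and 0.27 without replicates 7, 9 and 20. Of the 40, 11 passed by Pearson and 9 by both measures. How often other genes pass with these means was not computed.

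Over all 17 arrays, dose differences included, the genes most like Grp among the other 21379 were Scg2 at r = 0.899, a transcript without a symbol at 0.894 and Syt1 at 0.887. The nearest to Cartpt were Grp at 0.878, Vip at 0.863 and the same unnamed transcript at 0.844. For Scg2 they were that transcript at 0.918, Grp at 0.899 and Celf3, an RNA-binding protein gene, at 0.876. For Tac1 they were that transcript at 0.859, Abcd3, a peroxisomal transporter gene, at 0.844 and Slc39a3, a zinc transporter gene, at 0.834. Nmu, the brightest gene outside those 4, had other neighbours, Sox15 at 0.96, Adtrp at 0.946 and Immt at 0.944. Correlations of this kind share dose, slide and gland content between arrays and are given as a description.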

How the data were processed

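Per the file headers, the authors' scanner tables came from Feature Extraction 10.7.3.1, 1 table for each array, with the intensity of each spot and of its local background and other per-spot flags for both channels, beside a series table of log2 values. That deposited log2 table matched Cy5 over Cy3 ratios normalized by loess on uncorrected signals (r = 0.998 to 0.999 over probes) and served as an alternative, and 0 of its columns were left unmatched. The tables used here held the median, not the mean, spot intensity, so the median was used in its place and a planned comparison of both columns was not run. Median spot intensity was 75.5 to 96 over a background of 64 to 74.5, so dim probes are measured with little precision, and 17 arrays limit it further.

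Background was corrected by normexp (offset 50), followed by loess within arrays, in which control spots had weight 0. Spots of a probe were averaged. The dim-probe filter, 4 arrays or more with a Cy5 signal well above background, kept 27570 of 55681 probes. Each gene took its brightest probe, and symbols came from RefSeq transcripts (GRCm38.p6). Differences were tested with limma 3.58.1 in R 4.3.3 on 4 group means over 17 arrays, two-sided, with Benjamini-Hochberg adjustment over 21380 genes, of which 13851 had a symbol, at 0.05. The limma fit was tested on simulated log2 ratios, whereas normalization, the filter and the permutations were not. Correlations used 100000 permutations within dose groups. Alternatives changed normalization, background, filter, groups fitted, slide and single arrays. The genes and related lists were chosen with earlier results of these data known. From the lists, genes past the threshold at 75 mg/kg were named, with the brightest measured genes up to 3 per list, except a gene that is not reported here. The 3 most correlated genes were named for the members called at 75 mg/kg and for the brightest other one.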

Additional observations from a re-analysis of the deposited data

Results flagged for a closer look

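In 6 of 40 groups of values (10 genes in 4 groups), 1 array lay far from the others by Dixon's test, which chance does in about 1 of 20 groups. Vip at 75 mg/kg replicate 20 was at 2.06, against 1.26 to 1.36 on the other arrays of that group. Npy on the same array was at 0.97, against 0.476 to 0.544. Gal in control replicate 5 was at 0.655, against 0.139 to 0.243, and Gal at 50 mg/kg replicate 15 was at 0.127, against -0.192 to -0.141. These 4 values come from slide 3. Calcb at 50 mg/kg replicate 12 was at 0.0984, against 0.144 to 0.148, on a probe not well above background. Sst at 25 mg/kg replicate 7 was at 2.05, against 0.0166 to 0.113, on the array with the highest glandular marker mean. The cause of these deviations was not tested.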

How the results depend on the processing

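The replicate-level limits are these: 4 or 5 arrays per group, 1 probe per gene, and forestomach signal near background for dim probes. The reference channel was not well above background for Grp, Scg2 and Vip on any array, and it was so for Tac1 on 4 and for Npy on 1 of 17 arrays. No paired analysis was possible because the dose groups share no replicate numbers. Differences of single genes counted as unchanged in 338 of 352 recomputations under other settings and in all 544 that left out 1 array. For differences from control, unchanged meant a shift smaller than the spread between arrays, whether or not the gene stayed called. For 50 against 25 mg/kg it meant only the same sign and an adjusted p not under 0.05, whatever the size. Npy there went from -0.48 to -1.28 from processed signals and still counted as unchanged. None reversed a called direction. Leaving out the arrays with all glandular markers above background, and the relations with marker means, were chosen after the data were seen.

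At 75 mg/kg against control, 236 genes passed. The count was 145 with arrays centred on their medians, which moved the median of all genes to 0.19, 155 with only the compared groups, 424 with slide as a fixed block, 383 with slide as a random block, 121 without the glandular arrays and 119 to 289 without 1 array (119 to 157 without control replicates 1, 3 or 4 or 75 mg/kg replicates 17, 18 or 20). The 10 genes at 50 mg/kg became 1 by median centring, 3 from Cy5 alone, 6 without the filter, 28 and 21 with slide as a fixed and a random block, 6 with probes averaged, 5 without the glandular arrays and 2 to 32 without 1 array. The 3 genes at 25 mg/kg became 0 by median centring, 1 from processed signals, from Cy5 alone, without the filter or with slide as a fixed block, and 0 to 2 without 1 array. At 50 against 25 mg/kg the 0 genes became 1 from Cy5 alone and stayed at 0 without any 1 array.

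Of the peptide genes at 75 mg/kg, the 4 calls became 1 by median centring (Grp), 2 from processed signals (Grp and Scg2), 3 without the filter (all but Scg2) and 2 to 4 without 1 array, with 2 (Grp and Tac1) without control replicate 1 or 75 mg/kg replicates 17, 18 or 19. Over the 17 fits without 1 array, Grp and Tac1 stayed called in all 17, Cartpt in 13 and Scg2 in 7. The highest limma adjusted p there was 0.103 for Cartpt and 0.149 for Scg2. Their median difference of -0.88 was -1.27 from processed signals, where Tac1 was at -2.40 and Scg2 at -1.84, and -1.06 to -0.75 without 1 array. At 50 against 25 mg/kg the calls stayed at 0, also without any 1 array. The 1 related gene called, Syt1, became 2 from processed signals (with Vgf), 2 with only the compared groups (with Krt6a), 5 with slide as a fixed block (with Cck, Ctsl, Dsg3 and Krt6a), 4 with slide as a random block (with Cck, Dsg3 and Krt6a), 2 without the glandular arrays and 0 to 3 without 1 array. It was 0 without control replicates 1, 3 or 4 or 75 mg/kg replicates 17 or 18, 2 without control replicate 2 or 50 mg/kg replicates 12 or 15, and 3 (Cck, Dsg3 and Krt6a) without 75 mg/kg replicate 19. From Cy5 alone the called gene was Dsg3, not Syt1. The 14 correlated pairs became 0 with slide removed, 5 without the glandular arrays and 9 without the 2 farthest arrays. The causes were not tested.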
